A study of Mus musculus with 9 samples.

Results

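Proximal colons of mice heterozygous for a mutation of Shmt1 were compared with those of wild-type mice. Shmt1 encodes cytosolic serine hydroxymethyltransferase, which the labels call cSHMT. The comparison took the 3 arrays labelled heterozygous and the 3 labelled wild-type, that is, 6 of the 9 arrays of the study, and read the 22626 of 22690 probe sets that are not array controls. The other 3 arrays came from mutant colons, which served to place the heterozygous values between or outside both homozygotes.

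Every group was fed a diet without folate and choline from weaning at 3 weeks of age, so the comparison holds for that diet and there was no group on a complete diet. The mice had been crossed back to C57Bl/6 for 10 generations and were 9 weeks old. For the length of feeding the labels hold both 6 weeks and 5 weeks. They do not describe the Shmt1 allele, the sex or whether littermates were used, and a backcrossed allele may keep flanking DNA of its first strain. Each array was hybridised with RNA of 1 colon, amplified from about 50 ng, and the labels call the arrays of a genotype biological replicates.

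Cytosolic serine hydroxymethyltransferase moves a carbon unit from serine to tetrahydrofolate, which can then feed thymidylate synthesis or the remethylation of homocysteine. Its mitochondrial counterpart, Shmt2, carries out the same reaction in another compartment. The wall of the colon holds epithelium with absorptive and mucus-secreting goblet cells, a collagen-rich connective tissue with fibroblasts and immune cells, and layers of smooth muscle, so the RNA of 1 piece of colon mixes all of them.

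The 6 arrays were alike over all tested probe sets, with correlations between 0.9859 and 0.9934 over their 15 pairs. RNA shortening, read as the ratio of the 3' to the 5' beta-actin signal, stood at 5.02, 3.15 and 2.52 in wild-type 1 to 3 and 4.45, 3.05 and 2.57 in heterozygous 1 to 3, so that array 1 was highest in both genotypes and the genotypes overlapped. Markers of the labelled tissue were bright on all 9 arrays, with deposited signals of 4900.9 to 7366.3 for Car1, a carbonic anhydrase of colon epithelium, and of 6786.3 to 10360.9 for Zg16, a goblet cell lectin. Of the exocrine pancreas genes named on the array 1 of 6 was bright enough to be tested, and of the blood genes 1 of 4.

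Shmt1 signal was lower in heterozygous than in wild-type colons on each of its 3 tested probe sets, to a degree that differed between them. On probe set 1425177_at the normalized log2 values, that is, log2 of signal plus 16 after quantile normalization, were 9.29, 9.17 and 9.30 in wild-type 1 to 3 and 8.41, 8.14 and 8.39 in heterozygous 1 to 3. All heterozygous values lay below all wild-type values, and the mutant values of 7.22, 7.09 and 6.90 lay below both. The deposited signal averaged 594.7 ± 43.2 (SD, n = 3) over wild-type and 303.1 ± 31.6 over heterozygous colons, which is 50.97% of wild-type, on a linear scale on which the midpoint of the wild-type and mutant means was 355.7. The log2 fold change was -0.94 (SE 0.134), with the smallest p of all probe sets tested, but its adjusted p of 0.232 (limma, Benjamini-Hochberg) did not pass. Mutant colons were lower than heterozygous ones on this probe set by a log2 fold change of -1.25 (SE 0.134, adjusted p = 0.00939), which passed.

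The other Shmt1 probe sets separated the genotypes less. Probe set 1425178_s_at read 8.59, 8.53 and 8.25 in wild-type and 7.96, 8.01 and 8.26 in heterozygous colons, with heterozygous 3 just above wild-type 3 (log2 fold change -0.38, limma adjusted p = 0.584). The brightest, 1425179_at, read 9.21, 8.85 and 8.90 in wild-type and 9.09, 8.60 and 8.51 in heterozygous colons, where heterozygous 1 lay among the wild-type values (log2 fold change -0.25, limma adjusted p = 0.728). The dimmest, 1422198_a_at, was too low to be tested. On the tested probe sets heterozygous signal was thus between 50.97% and 84.68% of wild-type. Where in the gene these probe sets lie was not analysed here.

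**Figure D1:**
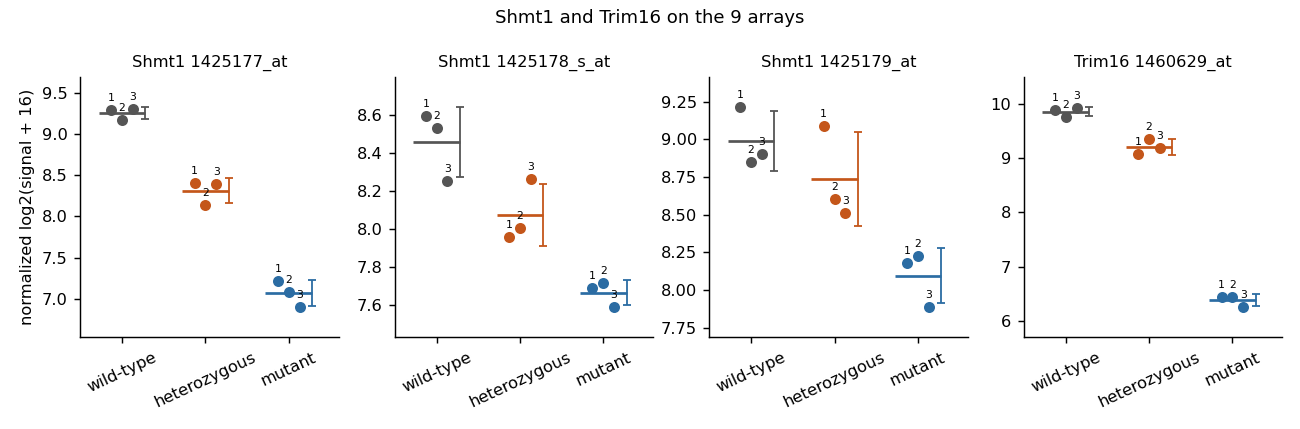
Normalized log2 signal of 3 probe sets of Shmt1 and 1 of Trim16 in each of the 9 arrays. Points are arrays with their replicate number, lines are means and bars are SDs of 3 arrays; on 1425177_at and on Trim16 the 3 genotypes do not overlap, while on the other Shmt1 probe sets heterozygous and wild-type arrays do.

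In the limma fit no probe set passed an adjusted p of 0.05 between heterozygous and wild-type colons, which is 0% of the 13576 tested. At an unadjusted p under 0.05 there were 1087, or 8.01%, with 605 higher (4.46%) and 482 lower (3.55%) in heterozygous colons. All 3 heterozygous values lay above all wild-type values for 988 probe sets (7.28%) and below them for 1008 (7.42%). The median log2 fold change over all probe sets was -0.0044, 51% of them had a fold change below 0, and the median SE was 0.147. Read with 1 probe set per gene, its brightest, 613 of 8202 genes (7.47%) had an unadjusted p under 0.05, with 278 higher (3.39%) and 335 lower (4.08%), and 54.4% of genes had a fold change below 0. So the genes described next stand at the top of an order in which none passed, and their values are given as such.

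That count of 0 depended on how the arrays were weighted. With weights estimated from the data, 134 probe sets passed, 84 of them higher and 50 lower, Shmt1 among them (adjusted p = 0.00987), but wild-type 2 then had a weight of 8.64 against 0.454 to 1.36 for the other 8 arrays, and with wild-type 2 left out and weights estimated anew no probe set passed. Leaving out heterozygous 3 let 3 probe sets pass, all lower: Clca1 1459889_at (log2 fold change -1.54, adjusted p = 0.0162), Fos (-1.31, adjusted p = 0.029) and Spon2. Spon2 read 6.37 and 6.34 in heterozygous 1 and 2, below the limit of the main filter, a mean log2 signal of 6.515 over the 9 arrays. It thus reached that fit through the other genotypes, and no fold is given for it. These were singled out after their values were seen.

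The genes of the collagens, the fibre and sheet proteins of connective tissue and basement membrane, were lower in heterozygous colons as a group. Of 17 collagen genes tested, 16 had a fold change below 0 with a median log2 fold change of -0.28, against -0.018 over all genes. At an unadjusted p under 0.05, 8 of the 17 were lower and none higher, beside 4.08% of all genes lower, and for 6 all heterozygous values lay below all wild-type values, beside 8.19% of all genes. The mean over the 17 genes stood at 9.51, 9.54 and 9.53 in wild-type, 9.26, 9.16 and 9.26 in heterozygous and 9.58, 9.56 and 9.45 in mutant colons. The heterozygous means lay below those of both homozygotes, and the median log2 fold change of mutant against wild-type colons was -0.03. Against both homozygotes together 10 of the 17 had an unadjusted p under 0.05, beside 8.72% of all genes. None of the 17 passed the adjusted threshold. In RNA of whole tissue, fewer cells of a type and less RNA per cell cannot be told apart. The 17 pool 3 lists, and their pooling was chosen after the values were seen.

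Among fibrillar collagens Col5a2, a chain of the collagen that starts fibrils, differed most. It read 10.43, 10.35 and 10.16 in wild-type and 9.48, 9.44 and 9.75 in heterozygous colons, with no overlap (log2 fold change -0.76, SE 0.126, adjusted p = 0.323). The mutant values of 10.32, 10.29 and 10.06 overlapped the wild-type ones. Col1a2 and Col1a1, the chains of the main fibre collagen, read 11.37, 11.33 and 11.36 against 11.01, 10.82 and 11.14, and 11.61, 11.46 and 11.52 against 11.26, 11.15 and 11.39. Both were without overlap (log2 fold changes -0.37 and -0.26, adjusted p = 0.576 and 0.584). Col3a1, the partner of type I in soft tissue, was at -0.46 (adjusted p = 0.601) with overlapping arrays, Col5a1 at -0.23 and Col5a3 at -0.07. All 6 fibrillar genes tested were thus below 0, and 4 had an unadjusted p under 0.05.

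Among microfibril and basement membrane collagens Col6a3, Col16a1 and Col4a1 had all heterozygous arrays below all wild-type arrays. Col6a3, a chain of the beaded microfibrils, read 9.68, 9.82 and 9.75 in wild-type, 9.26, 9.18 and 9.35 in heterozygous and 9.76, 9.85 and 9.79 in mutant colons (log2 fold change of heterozygous against wild-type -0.49, SE 0.104, adjusted p = 0.377). Its partners Col6a2 and Col6a1 had -0.28 and -0.18 with overlapping arrays. Col16a1, a collagen associated with fibrils, read 8.07, 8.01 and 8.06 against 7.38, 7.35 and 7.83 (-0.53, adjusted p = 0.555). Col4a1 and Col4a2 form the network of all basement membranes. Col4a1 read 10.91, 10.92 and 10.73 against 10.28, 10.31 and 10.51 without overlap (-0.49, SE 0.097, adjusted p = 0.323), and Col4a2 11.04, 11.18 and 10.77 against 10.78, 10.60 and 10.65, where heterozygous 1 lay just above wild-type 3 (-0.32, adjusted p = 0.584). The one collagen gene above 0 on its brightest probe set was Col4a5 (0.14, adjusted p = 0.83).

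Besides the brightest probe set of each gene, 10 others of these genes were tested. Of these 9 were below 0, 3 of them at an unadjusted p under 0.05, beside 3.55% of all probe sets lower. For 4 all heterozygous values lay below all wild-type values, beside 7.42% of all probe sets. They read genes already counted among the 17, in the same RNA, so they are not separate evidence. The 10 did not all match the brightest. Col4a5 was at -0.27 without overlap on 1425475_at, Col5a1 at 0.10 on 1416741_at and Col4a1 at -0.11 with overlapping arrays on 1426348_at. Without heterozygous 2 the collagen genes lower at an unadjusted p under 0.05 numbered 5 of 17, and 5 of 17 also when each array was centred on its median, while 14 to 16 of the 17 stayed below 0 in each fit that left out 1 array. With no filter on dim probe sets 31 collagen genes were read, of which 22 were below 0 and 9 above. Of the fibrillar ones 6 were then below 0 and 3 above.

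**Figure D2:**
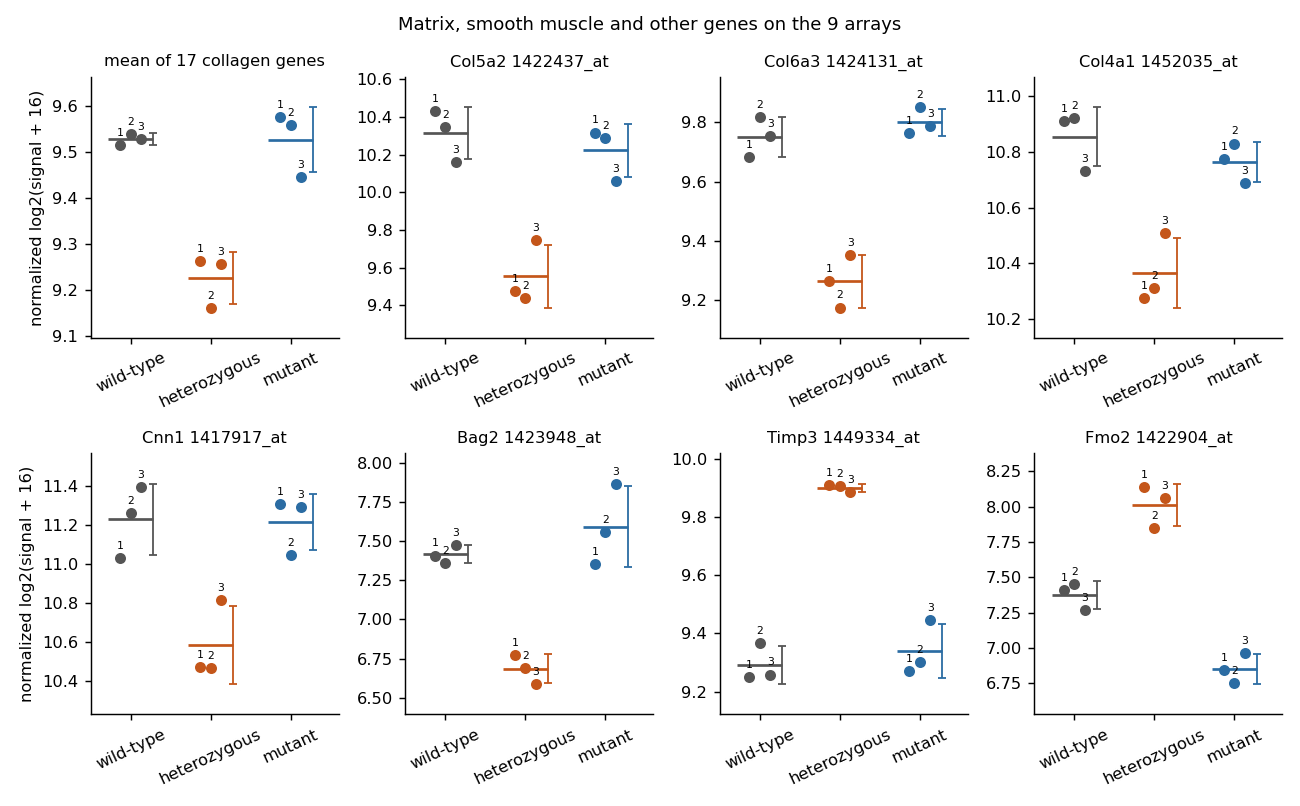
Normalized log2 signal by array for the mean of 17 collagen genes and for 7 single probe sets; points are arrays with their replicate number, lines are means and bars SDs of 3 arrays. In the panels of the collagens, Cnn1 and Bag2 the heterozygous arrays lie below both homozygotes, and in those of Timp3 and Fmo2 above both.

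Matrix genes other than collagens divided. Of 12 basement membrane genes that are not collagens 8 were below 0, with a median of -0.04, and 1 was lower at an unadjusted p under 0.05, beside 4.08% of all genes. This 1, the laminin chain Lama5, read 7.42, 7.33 and 7.39 in wild-type against 6.83, 6.82 and 7.12 in heterozygous colons (log2 fold change -0.46, limma adjusted p = 0.548). Of 11 genes that process or cross-link collagen 8 were below 0, with Loxl1, a lysyl oxidase, at -0.46 and Serpinh1, the collagen chaperone, at -0.44. Fibronectin, Fn1, read 10.09, 10.22 and 10.07 against 9.83, 9.67 and 9.98, without overlap (-0.30, adjusted p = 0.584). The 7 small leucine-rich proteoglycans, which coat collagen fibres, had a median of 0.0007. Among them fibromodulin, Fmod, read 8.77, 8.13 and 8.11 against 7.68, 7.73 and 7.79 on its brightest probe set (-0.61). On 1438966_x_at its heterozygous mean lay below the limit of the filter, a mean log2 signal of 6.515 over the 9 arrays, so that this probe set was tested only through the other genotypes, and no fold is given for it. Biglycan, Bgn, was at -0.23 without overlap.

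Proteases of the matrix and their inhibitors lay on both sides of 0, with 8 of 13 above 0 and a median of 0.07. Timp3, an inhibitor of metalloproteinases that binds to the matrix, gave the smallest p among genes higher in heterozygous colons. On 1449334_at it read 9.25, 9.37 and 9.26 in wild-type, 9.91, 9.91 and 9.88 in heterozygous and 9.27, 9.30 and 9.45 in mutant colons. The heterozygous arrays stood above all others, at 154.9% of the wild-type signal (log2 fold change 0.61, SE 0.104, adjusted p = 0.323). All 3 tested Timp3 probe sets were above 0, the lowest at 0.31. In the opposite direction Mmp23, a membrane metalloproteinase, read 9.52, 9.39 and 9.39 against 9.04, 9.12 and 9.12 (-0.34, adjusted p = 0.583).

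Genes of the contractile apparatus of smooth muscle were in part lower. Of 20 tested 14 were below 0, with a median log2 fold change of -0.12. At an unadjusted p under 0.05, 4 were lower (Cnn1, Casq2, Des and Tagln) and 1 was higher (Myocd), beside 4.08% of all genes lower and 3.39% higher. Cnn1, calponin, an actin-binding protein of smooth muscle, read 11.03, 11.26 and 11.39 in wild-type, 10.47, 10.46 and 10.82 in heterozygous and 11.31, 11.05 and 11.29 in mutant colons. All heterozygous values were lowest (log2 fold change of heterozygous against wild-type -0.65, SE 0.126, adjusted p = 0.323). Casq2, a calcium store protein, read 8.50, 8.43 and 8.63 against 8.01, 7.96 and 8.01, also without overlap (-0.53, adjusted p = 0.483). The muscle filament protein Des was at -0.37 and Tagln, transgelin, at -0.21, with overlapping arrays. Myocd, the coactivator that drives the smooth muscle programme, read 9.02, 9.17 and 9.29 against 9.30, 9.48 and 9.68 (0.33, adjusted p = 0.609).

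The most abundant contractile genes differed little. Actg2, enteric smooth muscle actin, was at -0.14, Acta2, vascular smooth muscle actin, at -0.08 and Myh11, smooth muscle myosin, at -0.12. The mean of the 20 genes stood at 10.56, 10.71 and 10.75 in wild-type and 10.51, 10.52 and 10.64 in heterozygous colons, so wild-type 1 lay within the heterozygous range. The mean of 9 fibroblast markers stood at 10.01, 9.94 and 9.77 against 9.76, 9.89 and 9.90. The fibroblast means of both genotypes overlapped, and the part of either cell type in the collagen result was not tested. With wild-type 1 left out 9 of the 20 were lower at an unadjusted p under 0.05, and 2 with wild-type 3 or heterozygous 2 left out.

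Heat shock proteins and their BAG co-chaperones, which fold proteins or deliver them for degradation, were lower in 16 of 20 cases, with a median of -0.14. At an unadjusted p under 0.05, 6 were lower and none higher, beside 4.08% of all genes lower. For 7 all heterozygous values lay below all wild-type values, beside 8.19% of all genes. Bag2, an inhibitor of the Hsp70-bound ligase CHIP, read 7.41, 7.36 and 7.48 in wild-type and 6.77, 6.69 and 6.59 in heterozygous colons, against 7.36, 7.56 and 7.87 in mutant colons (log2 fold change of heterozygous against wild-type -0.73, SE 0.153, adjusted p = 0.358). Hspa5, the chaperone of the endoplasmic reticulum, read 11.76, 11.79 and 11.96 against 11.38, 11.47 and 11.56 (-0.37, adjusted p = 0.483). Hspb1, a small heat shock protein, read 10.36, 10.44 and 10.37 against 10.17, 9.66 and 9.90 (-0.48, adjusted p = 0.49). These 3 were each without overlap, and the others at that level, Hsph1, Hspe1 and Bag1, were at -0.36, -0.18 and -0.17. Without wild-type 3, and likewise without heterozygous 2, 3 of the 20 were lower at an unadjusted p under 0.05.

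These groups are set beside the other lists in the plot of fold changes by list, where most medians lie near 0.

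**Figure D3:**
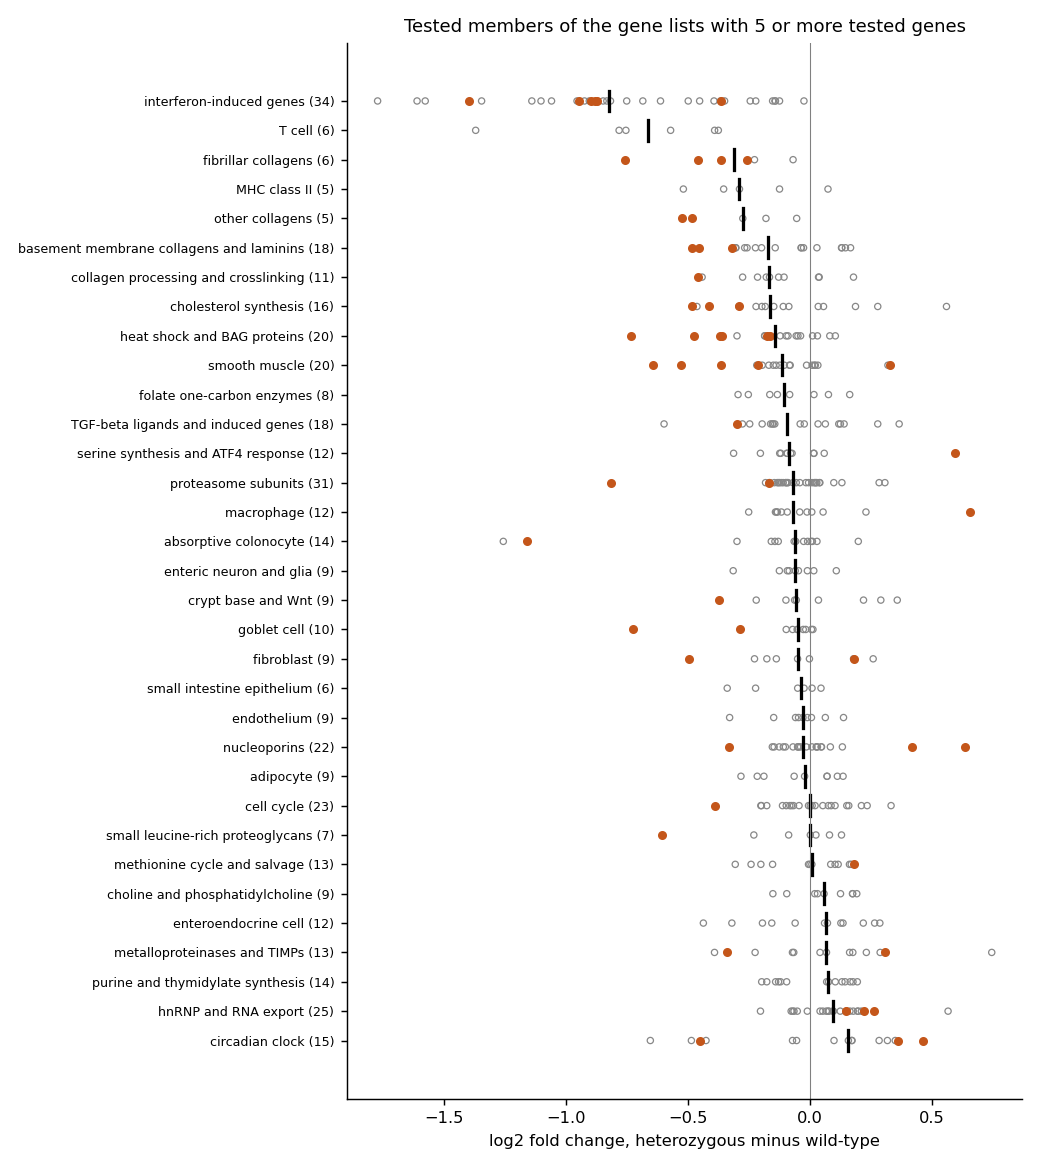
Log2 fold change of heterozygous against wild-type colons for every tested member of the 33 gene lists with 5 or more tested genes, whose number stands in parentheses; filled points have an unadjusted p under 0.05, open points do not, and black bars are list medians. The interferon-induced genes and the 3 collagen lists lie mostly left of 0, and no member passed an adjusted p of 0.05.

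Outside these groups the genes lower in heterozygous colons with the smallest p were diverse. Psmd3, a subunit of the cap of the proteasome, read 10.14, 10.10 and 10.11 in wild-type, 9.28, 9.05 and 9.57 in heterozygous and 9.16, 8.92 and 9.39 in mutant colons. Both altered genotypes lay below all wild-type arrays (log2 fold change of heterozygous against wild-type -0.82, SE 0.155, adjusted p = 0.323). Of 31 proteasome subunits 20 were below 0, with a median of -0.07. Besides Psmd3, 1 other, Psmc6 (-0.17), had an unadjusted p under 0.05, together 6.45% beside 4.08% of all genes lower. For 5 of the 31 (16.1%) all heterozygous values lay below all wild-type values, beside 8.19% of all genes. Slco3a1, an organic anion transporter, was also in this group, on a probe set whose heterozygous mean lay below the limit of the filter. Misp, an actin-bundling protein of epithelial cells, was at -0.30 (adjusted p = 0.473). Sox9, a transcription factor of crypt base cells, read 11.46, 11.18 and 11.15 against 10.71 to 11 without overlap (-0.37, adjusted p = 0.49). The 9 tested crypt base and Wnt genes divided, with 4 above 0 and 5 below. Their median was -0.06 and their range -0.37 to 0.36.

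Ighm, the immunoglobulin mu heavy chain, was lower on 1427351_s_at, at 9.85, 10.07 and 9.36 in wild-type and 8.19, 8.71 and 8.45 in heterozygous colons (log2 fold change -1.31, SE 0.197, adjusted p = 0.232). The arrays did not overlap there, and all 8 tested probe sets of Ighm were below 0. Probe sets under this symbol can bind other immunoglobulin transcripts, and they disagreed by array. On 1425385_a_at heterozygous 1 read 4.73 and heterozygous 2 and 3 read 11.21 and 11.55, against 11.12, 10.91 and 10.30 in wild-type colons (-1.61, SE 1.91, adjusted p = 0.856).

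Timp3, Fmo2 and Nup153 were among the 12 genes higher in heterozygous colons with the smallest p. Nup153, a nucleoporin of the nuclear basket, read 8.78, 8.80 and 9.07 in wild-type and 9.53, 9.52 and 9.50 in heterozygous colons (log2 fold change 0.63, SE 0.122, adjusted p = 0.323). Poldip3, a partner of the RNA export complex, was at 0.76, the RNA helicase Ddx5 at 0.50 and the RNA-binding protein Hnrnpr at 0.58, with adjusted p of 0.323, 0.391 and 0.344, each on a probe set ending in _x_at. Other probe sets of the 3 genes were nearer to 0, down to 0.18 for Poldip3, 0.02 for Ddx5 and 0.13 for Hnrnpr. Of the list of 25 hnRNP and RNA export genes 19 were above 0, with a median of 0.10, and 3 had an unadjusted p under 0.05 in that direction, Hnrnpk, Thoc2 and Hnrnpd, beside 3.39% of all genes. For 6 of the 25 all heterozygous values lay above all wild-type values, beside 6.28% of all genes. Of 22 nucleoporins Nup153 and Nup155 (0.42) were higher and Nup133 (-0.33) was lower at that level, with a list median of -0.03.

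The remaining genes among these 12 were Slc35a5 (0.64), a relative of nucleotide sugar transporters, Tspan12 (0.53), a tetraspanin of Wnt receptor signalling, Pa2g4 (0.70), a growth regulator that binds ErbB3, Adi1 (0.66), an enzyme of methionine salvage, Tgfbi (0.66), a matrix protein induced by TGF-beta, and Hmga2 (0.50), a chromatin protein. Hmga2 read 8.88, 9.12 and 9.02 in wild-type and 9.52, 9.50 and 9.51 in heterozygous colons. For Tgfbi and Pa2g4 other probe sets lay on the other side of 0, down to -0.11 for Tgfbi and -0.10 for Pa2g4, while for 8 of the 10 genes of the 12 with over 1 tested probe set all of them were above 0. Of the 12 probe sets 5 end in _x_at and 3 in _s_at, kinds that may bind more than 1 transcript. The share ending in _x_at was 7.72% of those tested and 12.9% of those higher at an unadjusted p under 0.05. All 7 such genes on the lower side had their probe sets on 1 side of 0.

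Against the mean of both homozygotes, which asks where heterozygous colons stand apart from wild-type and mutant colons together, 1 probe set passed (0.00737%), and 1232 had an unadjusted p under 0.05 (9.07%). The one was Trim16, an E3 ubiquitin ligase, on 1460629_at (log2 fold change 1.08, adjusted p = 0.00879). It did not lie outside the homozygotes. Its values were 9.89, 9.76 and 9.91 in wild-type, 9.07, 9.35 and 9.19 in heterozygous and 6.44, 6.45 and 6.26 in mutant colons. The mutant mean lay below the limit of the filter, so this probe set was tested only through the other genotypes. On the linear scale the heterozygous mean was 576.9 and the midpoint of wild-type and mutant 486.8, so a value between both on the linear scale read above their mean on the log scale. The call was lost without heterozygous 2 (adjusted p = 0.138), without wild-type 2 (0.0609) and without array 1 of every genotype (0.0555). Against wild-type alone Trim16 was at -0.65 (SE 0.125, adjusted p = 0.323), and its other probe set at -0.46 with an unadjusted p of 0.0765.

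Trim16 lies on chromosome 11, as does Shmt1, 36 genes away in the order of the GRCm38.p6 RefSeq table. The 5 nearest genes named on the array on each side of Shmt1 were Myo15, Alkbh5, Llgl1, Flii and Top3a on one side and Dhrs7b, Tmem11, Natd1, Map2k3 and Kcnj12 on the other. Of these 7 could be tested and 2 had an unadjusted p under 0.05, both lower. Flii, an actin-remodelling protein, read 10.69, 10.43 and 10.44 in wild-type and 10.16, 10.30 and 10.22 in heterozygous colons. Tmem11, a mitochondrial membrane protein, read 8.76, 9.02 and 8.42 against 8.35, 8.29 and 8.43. Flii was without overlap and Tmem11 was not. Over a window of 50 genes on each side, a width chosen after the values were seen, 8 of 46 tested genes (17.4%) had an unadjusted p under 0.05, beside 7.47% of all genes. They were Trim16, Flii, Tmem11 and Fam83g, which were lower, and B9d1, Gid4, H2aw and Myocd, which were higher. Flanking DNA of the first strain and the loss of Shmt1 cannot be told apart in this design.

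Next in the order against both homozygotes came Fmo2, and then Col5a2 and Timp3, none of which passed. Fmo2, a flavin-containing monooxygenase, read 7.41, 7.45 and 7.27 in wild-type, 8.14, 7.85 and 8.06 in heterozygous and 6.85, 6.75 and 6.96 in mutant colons on 1422904_at. The log2 fold change was 0.64 against wild-type (SE 0.136, adjusted p = 0.377) and 0.90 against both homozygotes (adjusted p = 0.0633). The latter passed with array weights (adjusted p = 0.0228), with no trend in eBayes (0.0291) and without probe sets ending in _x_at or _s_at (0.0488). Its brighter probe set 1422905_s_at read 8.29, 8.29 and 7.74 in wild-type and 9.05, 8.71 and 8.82 in heterozygous colons, on the same side. Mutant colons were lower than heterozygous ones on 1422904_at (log2 fold change -1.16, adjusted p = 0.0144), one of 3 probe sets that passed in that comparison (0.0221%), with Shmt1 and Trim16.

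Ccl11, the chemokine eotaxin that attracts eosinophils, had the largest difference among the named genes on the higher side of this order. It read 7.14, 7.09 and 7.71 in wild-type, 8.22, 8.78 and 8.51 in heterozygous and 6.37, 7.54 and 7.38 in mutant colons (log2 fold change of heterozygous against wild-type 1.19, SE 0.291, adjusted p = 0.483). Rcsd1, a regulator of actin capping, was at 0.82, Lepr, the leptin receptor, at 0.67 and Tsc22d3, a leucine zipper protein induced by glucocorticoids, at 0.49 on 1425281_a_at against wild-type, each with all heterozygous arrays above all wild-type and all mutant arrays. On its brighter probe set 1420772_a_at Tsc22d3 was at 0.27 and heterozygous 2, at 9.95, lay below wild-type 1, at 10.09. On the lower side of this order stood Col5a2, Bag2, Cnn1, Col6a3 and Casq2, described above, with Ppa1, an inorganic pyrophosphatase (-0.51 against wild-type), and Ahcyl2. Fmod 1438966_x_at stood there too, tested only through the other genotypes as said above. Ahcyl2, a relative of S-adenosylhomocysteine hydrolase, was at -0.61 on 1428195_at and at 0.18 on its brightest probe set, so its probe sets disagreed.

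The folate and methyl-group pathways around Shmt1 gave few differences. Among 8 tested folate one-carbon enzymes and 4 genes of folate transport and polyglutamate formation none had an unadjusted p under 0.05, and the medians were -0.11 and 0.02. The 14 genes of purine and thymidylate synthesis had a median of 0.07 and the 9 of choline and phosphatidylcholine metabolism one of 0.06, again with none at that level. Among 13 genes of the methionine cycle and salvage 1 was at that level, Ahcyl2, higher at 0.18 on its brightest probe set. Among 12 of serine synthesis and the ATF4 response 1 was, Aldh18a1, the first enzyme of proline synthesis, also higher. Over all genes 7.47% were at that level, 3.39% of them on the higher side. Aldh18a1 read 10.51, 9.75 and 9.94 in wild-type and 10.87, 10.67 and 10.44 in heterozygous colons, with wild-type 1 above heterozygous 3 (0.59, adjusted p = 0.584). A p that misses the threshold with 3 arrays a group does not show that these genes were alike.

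Interferon-induced genes, which cells switch on against viruses and in response to T cells, had the lowest list median, but the values rested on single arrays. All 34 tested were below 0, with a median log2 fold change of -0.83, 6 had an unadjusted p under 0.05, beside 4.08% of all genes lower, and 4 had all heterozygous values below all wild-type values, a share of 11.8% beside 8.19% of all genes. Mx1, an antiviral GTPase, read 8.62, 8.28 and 8.62 in wild-type and 7.05, 8.21 and 7.65 in heterozygous colons (-0.87, adjusted p = 0.576). Of the chemokine Cxcl10 the heterozygous mean lay below the limit of the filter, so it was tested only through the other genotypes. It is still counted among the 34. Tap1, the peptide transporter of antigen presentation, was at -0.90 and the exonuclease Isg20 at -0.37. The mean of the list stood at 9.76, 9.20 and 9.26 in wild-type and 7.84, 9.44 and 8.69 in heterozygous colons. Heterozygous 1 was lowest and heterozygous 2 above 2 wild-type arrays.

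The median went to -0.34 without heterozygous 1, with none of 34 at an unadjusted p under 0.05, to -0.58 without wild-type 1 with 1 of 33 at that level, to -1.14 without heterozygous 2 with 26 of 34 and to -0.13 without array 1 of every genotype. Leaving out mutant 1, which enters only the estimate of the spread, the normalization and the filter, gave 13 of 33 at that level. T cell genes were also lowest in heterozygous 1. Their mean over 6 genes stood at 9.35, 8.81 and 8.27 in wild-type and 6.81, 9.01 and 8.47 in heterozygous colons, with a median log2 fold change of -0.66. That median was -0.08 without heterozygous 1, and without array 1 of every genotype it was 0.20 with all 6 above 0. Gzma, a protease of cytotoxic cells, read 4.96 in heterozygous 1 and 9.08 and 8.81 in heterozygous 2 and 3. The mean of 5 MHC class II genes was 10.17, 10.75 and 10.76 in heterozygous and 10.97, 10.67 and 10.78 in wild-type colons. Among the heterozygous and wild-type arrays the T cell and interferon lists were lowest in the same array. In mutant 1 to 3 the interferon mean stood at 9.45, 8.37 and 8.19 and the T cell mean at 8.81, 7.68 and 7.15. Mutant 2 and 3 thus lay below all wild-type arrays in both lists. The median log2 fold changes of mutant against wild-type colons were -0.71 and -1.02. The part of T cells in the interferon values was not tested.

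**Figure D4:**
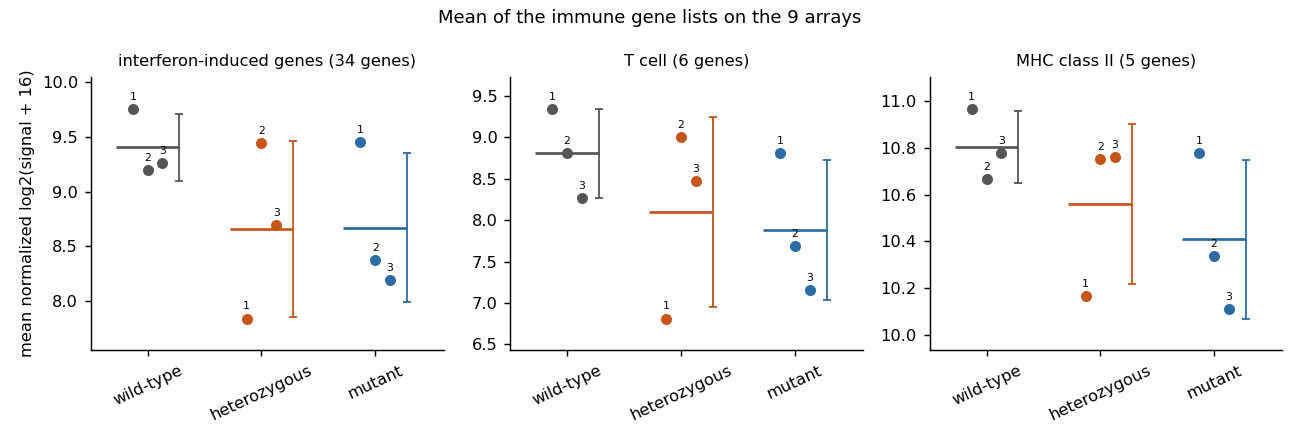
Mean normalized log2 signal of 34 interferon-induced, 6 T cell and 5 MHC class II genes in each of the 9 arrays; points are arrays with their replicate number, lines are means and bars SDs of 3 arrays. Heterozygous 1 is lowest among the heterozygous and wild-type arrays in each panel, while heterozygous 2 and 3 lie nearer to the wild-type arrays.

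Since these genes varied together by array, their promoters were searched for a short form of the interferon-stimulated response element, GAAA, any 2 bases and GAAA again, on either strand with overlapping matches counted, in the 250 bases before the start site (RefSeq, GRCm38.p6). Of the interferon-induced genes 29 of 34 were in the promoter table, and 12 of them (41.4%) held a match, beside 3.46% of 27025 genes. The stretches around the match are shown for the 4 with the smallest p among them, with matches in capitals, 5' to 3' on the gene's strand. They were taken from chr5:92349020-92349139 (minus strand) for Cxcl10, chr3:142620543-142620662 (plus) for Gbp2, chr12:26456508-26456627 (minus) for Rsad2 and chr5:120907526-120907645 (minus) for Oas1a. Gbp2 is a guanylate-binding GTPase, Rsad2 the antiviral protein viperin and Oas1a an oligoadenylate synthetase. Cxcl10 stands among the 4, and among the 12, by a probe set that was tested only through the other genotypes.
Cxcl10: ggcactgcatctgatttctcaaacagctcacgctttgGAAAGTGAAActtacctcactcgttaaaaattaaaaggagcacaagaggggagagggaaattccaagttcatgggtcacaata
Gbp2: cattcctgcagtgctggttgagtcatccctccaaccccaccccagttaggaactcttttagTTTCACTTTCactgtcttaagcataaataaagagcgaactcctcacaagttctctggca
Rsad2: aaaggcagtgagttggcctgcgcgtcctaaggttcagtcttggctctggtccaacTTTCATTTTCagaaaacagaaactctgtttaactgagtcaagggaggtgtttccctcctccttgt
Oas1a: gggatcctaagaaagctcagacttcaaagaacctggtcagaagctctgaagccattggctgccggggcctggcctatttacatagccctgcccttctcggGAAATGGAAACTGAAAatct
The match is on the gene's strand in Cxcl10 and Oas1a, where 2 matches overlap, and on the other strand in Gbp2 and Rsad2. The 12 genes with a match had a median log2 fold change of -0.87 and a range from -1.40 to -0.03, and the 17 without one a median of -0.39 and a range from -1.35 to -0.13. The ranges overlap, and a match is a description of these letters only.

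At an unadjusted p under 0.05, 2 of 10 goblet cell genes (20%) and 1 of 14 absorptive colonocyte genes (7.14%) were lower, beside 4.08% of all genes. None of either list was higher at that level, and 8 of the 10 goblet cell genes were below 0. Aqp4, a water channel of the surface epithelium, read 10.69, 10.71 and 11.53 in wild-type and 9.06, 9.38 and 11.01 in heterozygous colons (log2 fold change -1.16, SE 0.444, adjusted p = 0.584), with heterozygous 3 among the wild-type values. Retnlb, a goblet cell product made on contact with bacteria, read 12.49, 12.49 and 12.68 against 11.07, 11.86 and 12.54 (-0.73, adjusted p = 0.584), again with heterozygous 3 near wild-type. Clca1, another secreted goblet cell protein, was at -0.29 on its brightest probe set. Fos, an immediate early gene, read 10.22, 9.97 and 11.24 in heterozygous colons, Spon2, a secreted matrix protein, 6.37, 6.34 and 7.44, and Clca1 1459889_at 7.67, 7.43 and 8.83, so heterozygous 3 was the highest of the 3 for each. The list medians of absorptive colonocytes, goblet cells and enteroendocrine cells were -0.06, -0.05 and 0.07, and those of endothelium, adipocytes, enteric neurons and glia, and small intestine epithelium -0.03, -0.02, -0.06 and -0.04.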

How the data were processed

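The table deposited by the authors holds 1 linear intensity per probe set and array, made with the Affymetrix program GCOS per the submitters' processing notes, whose version and settings the sources used here do not give. Every array had a trimmed mean of 500.1 to 500.2, so arrays had been scaled to a common level. After log2 of signal plus 16 the 9 arrays were quantile normalized, and probe sets with a mean under the 40th percentile were left out, which left 13576 of 22626. Adding 16 shrinks the fold changes of dim probe sets.

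limma 3.58.1 (R 4.3.3; lmFit, eBayes with a trend, Benjamini-Hochberg over all probe sets tested) was fitted to all 9 arrays with no covariate, and p-values measure the spread between these arrays, whose number limits the precision. Symbols came from the platform annotation, updated through gene identifiers to the GRCm38.p6 RefSeq table; 12489 of the tested probe sets have 1 symbol, 448 several and 639 none, and those with several or none are not named. A gene in a list was read by its brightest probe set. The 39 lists name 646 genes, of which 568 are on the array, 3 through a synonym, and 465 were tested.

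Named genes are Shmt1, the 12 higher and 12 lower than wild-type with the smallest p and no overlap, 8 and 8 against both homozygotes, up to 4 per list and 5 neighbours on each side; further list members were named after their values were seen. The members and lists were chosen with earlier results of these data known. The fit was tested on simulated data with changes put into the heterozygous arrays. There 20 of 50 changes of 1.5-fold passed against wild-type, 44 of 50 of 2-fold and all 50 of 4-fold. In the same data 19 unchanged probe sets passed too. Alternatives were other scalings, added constants, filters, eBayes settings, array weights, a replicate block, only 6 arrays and each array left out. Figures were drawn with matplotlib.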

Additional observations from a re-analysis of the deposited data

Results flagged for a closer look

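Heterozygous and mutant colons differed from each other, by a test of mutant minus heterozygous colons in the same limma fit, on 3 probe sets. The log2 fold change was -2.8214 for Trim16, -1.245 for Shmt1 on 1425177_at and -1.1609 for Fmo2 on 1422904_at. For Trim16 and Shmt1 both altered genotypes lay below wild-type and mutant colons lay further below. For Fmo2 the heterozygous arrays lay above wild-type and the mutant arrays below it. The mutant mean of Trim16, 6.38, lay below the filter limit of 6.515, so its probe set was tested only through the other genotypes. The difference for Trim16 passed in every fit run with 3 genotypes. That for Shmt1 was lost without heterozygous 1 (adjusted p = 0.065), without mutant 2 (0.0864) and without array 1 of every genotype (0.0587), and that for Fmo2 without heterozygous 1 (0.0722), heterozygous 3 (0.0521), mutant 1 (0.108) or mutant 2 (0.144), without array 1 of every genotype (0.0957), with no filter (0.053) and on values as deposited (0.0593).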

How the results depend on the processing

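The count of 0 probe sets that passed between heterozygous and wild-type colons held in every fit run except with array weights (134) and without heterozygous 3 (3), and it ranged from 0 to 3 when single arrays were left out. The count at an unadjusted p under 0.05 was 1634 with no filter, 2721 with array weights, 640 with array weights and wild-type 2 left out (an alternative added after the data were seen), 608 without array 1 of every genotype and 779 to 1270 when single arrays were left out. Shmt1 1425177_at kept its direction in every fit, from -0.99 to -0.86 without single arrays and -1.02 with array weights and wild-type 2 left out, and passed only with array weights (-0.91). Against both homozygotes 2 probe sets passed without a trend in eBayes, 8 with array weights, 2 without probe sets ending in _x_at or _s_at (also added after the data were seen), 2 without array 1 of every genotype and 0 to 6 without single arrays. The number of named genes that passed between mutant and heterozygous colons was 1 to 4 when arrays were left out. The cause of these shifts was not tested.

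The replicate number as a block gave 1681 probe sets at an unadjusted p under 0.05 and 7 against both homozygotes, with Fmo2 1422904_at among them (adjusted p = 0.0438), and still 0 that passed against wild-type. Deviations of same-numbered heterozygous and wild-type arrays correlated at 0.313, 0.0257 and 0.409, and those of differently numbered arrays at -0.373 to -0.00263. Arrays 1 and 3 thus correlated best with their own number, while all values of array 2 lay near 0. Deviations from a mean of 3 arrays sum to 0, so positive values for the same number push the others below 0. The beta-actin ratio also fell from array 1 to array 3 in each genotype, with 4.84, 3.75 and 2.73 in mutant colons. The main fit took no account of the number, and what arrays of the same number share was not tested.

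Of 121 named probe sets 114 kept their direction against wild-type in every alternative in which they were tested, that is, in 17 to 23 alternatives, with 71 of the 121 tested in all 23. The others were Col5a3, at 0.0215 with array weights and -0.2213 to 0.0396 without single arrays, and all 6 T cell genes without array 1 of every genotype: Cd8a (0.0621), Gzma (0.26), Ccl5 (0.0133), Cd3d (0.15), Nkg7 (0.29) and Cd3e (0.44). Nkg7 ranged from -0.7078 to 0.0905 without single arrays. Of 39 list medians 17 moved by more than the spread between arrays in some fit. With 3 arrays a group an exact permutation test of 1 value cannot go below p = 0.1, and the dim probe sets left out, Shmt1 1422198_a_at among them, were not tested.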

Other observations

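Clock genes lay on both sides of 0. Per1, a repressor of the clock, read 7.50, 7.23 and 7.65 in wild-type and 7.72, 8.02 and 7.72 in heterozygous colons (log2 fold change 0.36, limma adjusted p = 0.621), and Hlf, a PAR-domain output factor, 6.93, 7.04 and 6.72 against 7.59, 7.39 and 7.10 (0.46, adjusted p = 0.598), with its other probe set at -0.12. Cry1, the partner of Per proteins, read 8.87, 9.13 and 8.95 against 8.36, 8.79 and 8.45 (-0.45, adjusted p = 0.609). None passed, and the median of 15 clock genes was 0.16, beside -0.14 for mutant against wild-type colons. Against both homozygotes 7 of the 15 had an unadjusted p under 0.05, beside 8.72% of all genes.

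Of 16 cholesterol synthesis genes 11 were below 0, with a median of -0.17 and 3 lower at an unadjusted p under 0.05, beside 4.08% of all genes: Lss (-0.49), Sqle (-0.29) and Idi1 (-0.41). Cd163, a scavenger receptor of macrophages, read 7.99, 7.58 and 6.84 in wild-type, 8.15, 8.08 and 8.14 in heterozygous and 7.46, 7.25 and 6.56 in mutant colons, while the median of 12 macrophage genes was -0.07. Kit, the receptor that marks interstitial cells of Cajal, read 8.86, 9.15 and 9.32 against 9.50, 9.34 and 9.67 (0.39, adjusted p = 0.612). The 3 tested markers of these cells divided, with 2 above 0 and 1 below. Their median was 0.17 and their range -0.53 to 0.39. Their mean stood at 8.32, 8.77 and 9.09 in wild-type and 8.63, 8.57 and 9.02 in heterozygous colons, with overlap.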
